A study of Mus musculus with 15 samples.

Results

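Collagen chains were taken as every gene whose symbol has the form Col, a type number, the letter a and a chain number, which gave 26 of the 13938 protein-coding genes in the deposited table. GENCODE M21 annotates 44 mouse protein-coding genes with such symbols, and those missing from the table were not analysed here. The 15 samples came from C57BL/6J mice in 5 groups of 3. Big nodules, small nodules and model thymi came from mice 8, 15 and 25, which had received intraperitoneal diethylnitrosamine (DEN, a DNA-alkylating carcinogen) and carbon tetrachloride (CCl4, a liver toxin), and each of these mice gave 1 sample of each kind. The nodules are labelled hepatocellular carcinoma (HCC). Normal livers and normal thymi came from mice given intraperitoneal corn oil, and the titles name normal mice 2 and 3 for both organs. Livers are named here by the numbers of their table columns, 2, 3 and 5, because the titles name normal mouse 3 for more than 1 liver. All groups share the strain. Sex, age and doses were not stated for any group. The labels do not settle whether every normal sample came from a separate animal, so p-values there measure the spread between these samples, which may in part be technical. A nodule, a liver and a thymus are mixtures of cells, and in such bulk RNA fewer cells of a type and less RNA per cell cannot be told apart.

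Collagens are the structural proteins of the extracellular matrix, built as helical trimers of alpha chains, each from its own gene. Fibrillar chains (types I, III and V) form the tension-bearing fibrils of scar and stroma, and type IV chains form the sheet-like network of basement membranes under epithelium and endothelium. Type VI chains form beaded microfibrils, FACIT chains (fibril-associated collagens with interrupted triple helices) decorate fibrils, and multiplexins (types XV and XVIII) bridge basement membranes to stroma. In injured liver, stellate cells are known as the main source of fibrillar collagen, while in thymus fibroblasts of the capsule and septa and the epithelial network make the matrix. Values are FPKM (sequenced fragments per unit of transcript length and of library size) and differences are of mean log2(FPKM + 1), a scale on which low genes show less change than they had. A difference was called at a Benjamini-Hochberg adjusted p under 0.05 in limma over all genes with at least 1 FPKM in at least 3 samples of the comparison. Rises and falls below are called differences, and each nodule value that enters the test against livers is the mean of the big and the small nodule of a mouse. Levels of different genes are compared on FPKM, with a limit: the summed FPKM of a gene's transcripts over its own FPKM ran from 0.679 to 2.30 among the members (median 1.13).

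Both type IV pairs among the members are arranged head to head, and the stretch between or across their starts is shown because these 4 genes are the basement membrane chains that rose in nodules. Sequences are from the RefSeq promoter table on GRCm38.p6, with capitals for a motif found by search. Col4a4 (chr1:82448423-82586849, minus strand) and Col4a3 (chr1:82586921-82722059, plus strand) lie 71 bases apart. The stretch between them is printed on the minus strand, so its letters run from the Col4a3 start to the Col4a4 start. Its label names the genes by position, with Col4a4 first. Col4a1 (chr8:11198423-11312826, minus strand) and Col4a2 (chr8:11312805-11449287, plus strand) overlap by 22 bases at their starts, and that overlap is printed with 8 bases on each side. For contrast, the 120 bases upstream of Col3a1 (plus strand), a fibrillar chain that rose in nodules, and of Col5a3 (minus strand), a fibrillar chain that fell, are given 5′ to 3′ on the gene's own strand.
Col4a4 to Col4a3, chr1:82586850-82586920, minus strand: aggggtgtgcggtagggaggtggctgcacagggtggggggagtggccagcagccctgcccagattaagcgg
Col4a1 and Col4a2, chr8:11312797-11312834, plus strand: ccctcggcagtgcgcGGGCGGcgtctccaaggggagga
Col3a1, chr1:45311418-45311537, plus strand: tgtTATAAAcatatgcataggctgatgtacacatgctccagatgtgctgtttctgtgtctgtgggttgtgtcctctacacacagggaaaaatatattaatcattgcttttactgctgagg
Col5a3, chr9:20815068-20815187, minus strand: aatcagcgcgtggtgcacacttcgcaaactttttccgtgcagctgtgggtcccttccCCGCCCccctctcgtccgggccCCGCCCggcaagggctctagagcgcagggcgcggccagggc
The Col4a3 and Col4a4 interval had a GC content of 69.0% and held none of the motifs searched. The Col3a1 stretch had 40% GC and 1 TATAAA, and the Col5a3 stretch had 70% GC and 2 CCGCCC. Motifs were searched on both strands in windows of 300 bases, 250 before to 50 after a start, and no motif contains another. The box CCAAT was held by 37.4% of all 32851 windows and by 8 of the 22 windows of the 20 collagen genes matched in the table. The GC box GGGCGG, which reads CCGCCC on the opposite strand, was held by 35.7% of all windows and by 14 of the 22. The box TATAAA was held by 13.6% of all windows and by 3 of the 22. Windows with the GC box included those of Col1a2, Col4a1, Col4a2, Col5a1 and Col6a2, which rose in nodules, and of Col5a3 and Col27a1, which fell. Windows with TATAAA included those of Col3a1, which rose, and Col13a1, which fell. A match describes letters in a window and says nothing on whether a factor binds there.

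The labelled organs were checked by markers. Summed FPKM of 6 hepatocyte genes lay between 30502 and 43901 in nodules, between 18386 and 21423 in livers, and between 131 and 189 in all thymi, where Alb, albumin, averaged 0.852% of the liver mean in model thymi and 0.992% in normal thymi. Summed FPKM of 7 thymocyte genes lay between 3.97 and 14.4 in nodules, 3.39 and 4.42 in livers, and 1713 and 1953 in thymi. Mitochondrial transcripts made up 2.88% of FPKM in 1 library, the big nodule of mouse 25, against 6.93 to 11.1% in the 8 other nodules and livers, so the test against livers was also run without it, an alternative chosen after seeing the data. Leaving it out gave 16 called collagen genes against livers, 13 higher and 3 lower. No share of all genes called in that run stands beside this count, so it is not read against other genes.

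Against normal livers, nodules had higher transcript levels of 4 type IV chains, 5 fibrillar chains and 3 type VI chains, and lower levels of the fibrillar chains Col5a3 and Col27a1 and the transmembrane chain Col13a1. Of the 26 members 18 passed the filter and were tested, and 12 rose and 3 fell. Over all 10669 genes tested 40.5% were called, 27.4% higher and 13.1% lower. The median difference was 0.65 for the tested members and 0.13 for all genes. The size of a difference of a low gene depends on the value added before the logarithm: with 0.1 in place of 1 no call changed, but Col4a3 had 5.22, Col4a4 3.22, Col5a2 2.53, Col6a2 1.29, Col6a3 1.06, Col5a1 0.79 and Col13a1 -1.33. Of the 18, Col4a3, Col4a4, Col5a2, Col6a2 and Col6a3 passed the filter through nodules alone, being under 1 FPKM in every liver, and Col13a1 through livers alone, so those 6 had to differ to be tested. The 8 members left out were Col4a5, Col6a6, Col7a1, Col9a3, Col11a2, Col12a1, Col16a1 and Col20a1. With no filter 17 of the 26 were called, 14 higher and 3 lower. The 40.5% above is of filtered genes and does not serve as the share beside that count. Every nodule lay above every liver in 12 of the 18 tested members and below in 3, against 27.4% and 12.3% of all genes tested.

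**Figure D1:**
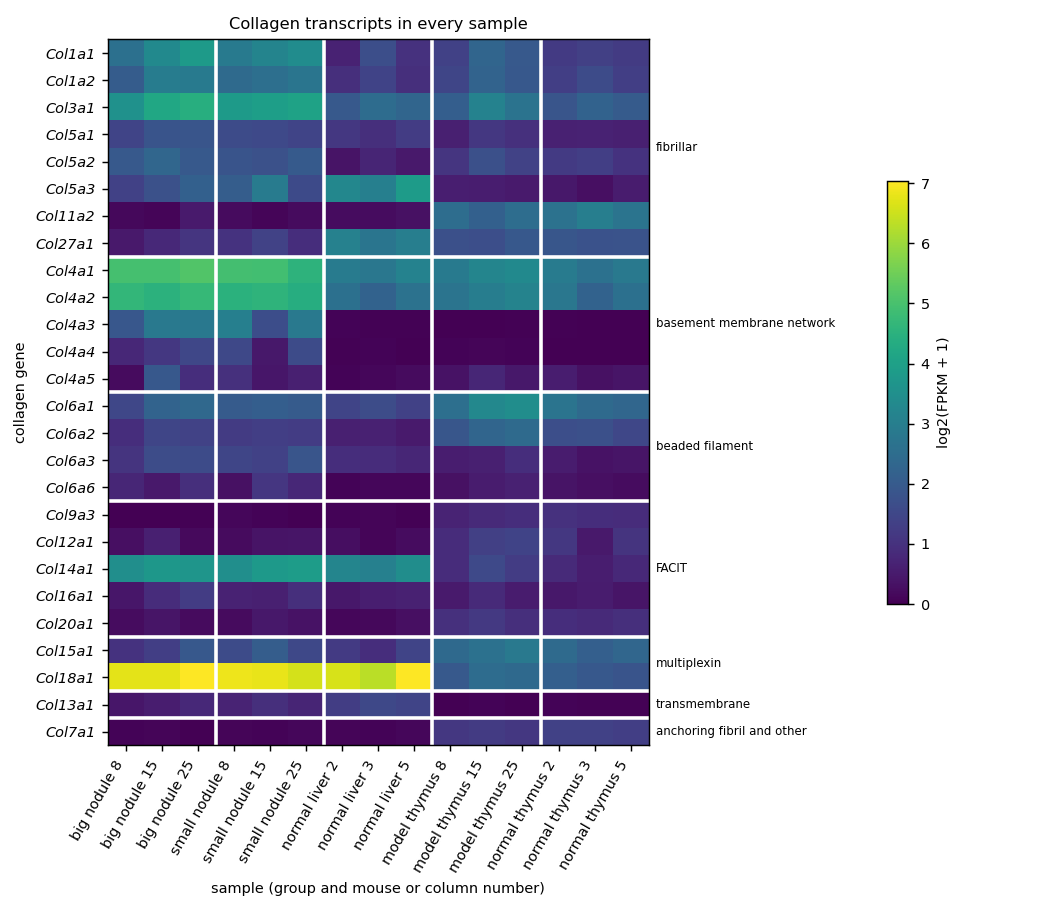
Level of each of the 26 collagen genes (rows, grouped by class) in each of the 15 samples (columns), as log2(FPKM + 1) by colour. Col18a1 is the brightest row in nodules and livers, between 78.5 and 131 FPKM, and lies between 2.58 and 4.66 FPKM in thymi; Col4a1 and Col4a2 are brighter in every nodule than in every liver.

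Type IV chains of the basement membrane network showed called rises for 4 of 4 tested members. Col4a1, which with Col4a2 forms the widespread type IV trimer, had 30.2, 30.1 and 34.0 FPKM in the big nodules of mice 8, 15 and 25 and 29.8, 29.2 and 22.4 FPKM in their small nodules, against 6.63, 5.97 and 7.77 FPKM in livers 2, 3 and 5. It rose by 1.96 (SE 0.13, adjusted p = 2.5e-05), with every nodule above every liver. Its head-to-head partner Col4a2 had 24.5, 22.1 and 25.3 FPKM in big nodules and 21.5, 22.8 and 19.9 FPKM in small nodules, against 5.04, 3.6 and 5.26 FPKM in livers, a rise of 2.08 (SE 0.14, adjusted p = 3.32e-05). Both chains rose together. Their ratio, Col4a1 over Col4a2, averaged 1.29 ± 0.0472 in nodules and 1.48 ± 0.172 in livers (SD, n = 3 mice and 3 livers).

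Col4a3 and Col4a4, chains known from the basement membrane of the kidney glomerulus, where they join Col4a5, were near 0 in every liver and present in every nodule. Col4a3 had 2.78, 6.25 and 6.01 FPKM in big nodules and 7.22, 2.19 and 6.21 FPKM in small nodules of mice 8, 15 and 25, against 0.0446, 0.0200 and 0.0222 FPKM in livers. Its rise of 2.48 (SE 0.15, adjusted p = 2.27e-05) was the largest among the members. Col4a4 had 0.713, 1.19 and 1.81 FPKM in big nodules and 1.90, 0.373 and 2.05 FPKM in small nodules, against 0.0360, 0.0578 and 0.0173 FPKM in livers, and rose by 1.11 (SE 0.18, adjusted p = 0.00199). Both genes were lowest in the same library, the small nodule of mouse 15, and both were highest in a small nodule. Col4a3 exceeded Col4a4 in each of the 6 nodules, with a ratio of 4.20 ± 1.23 (SD, n = 3 mice). Col4a5, on chromosome X, was not tested: it had 0.147, 2.80 and 0.888 FPKM in big nodules and 0.981, 0.344 and 0.529 FPKM in small nodules, against 0.0426, 0.0918 and 0.150 FPKM in livers. Its groups overlapped at the big nodule of mouse 8.

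**Figure D2:**
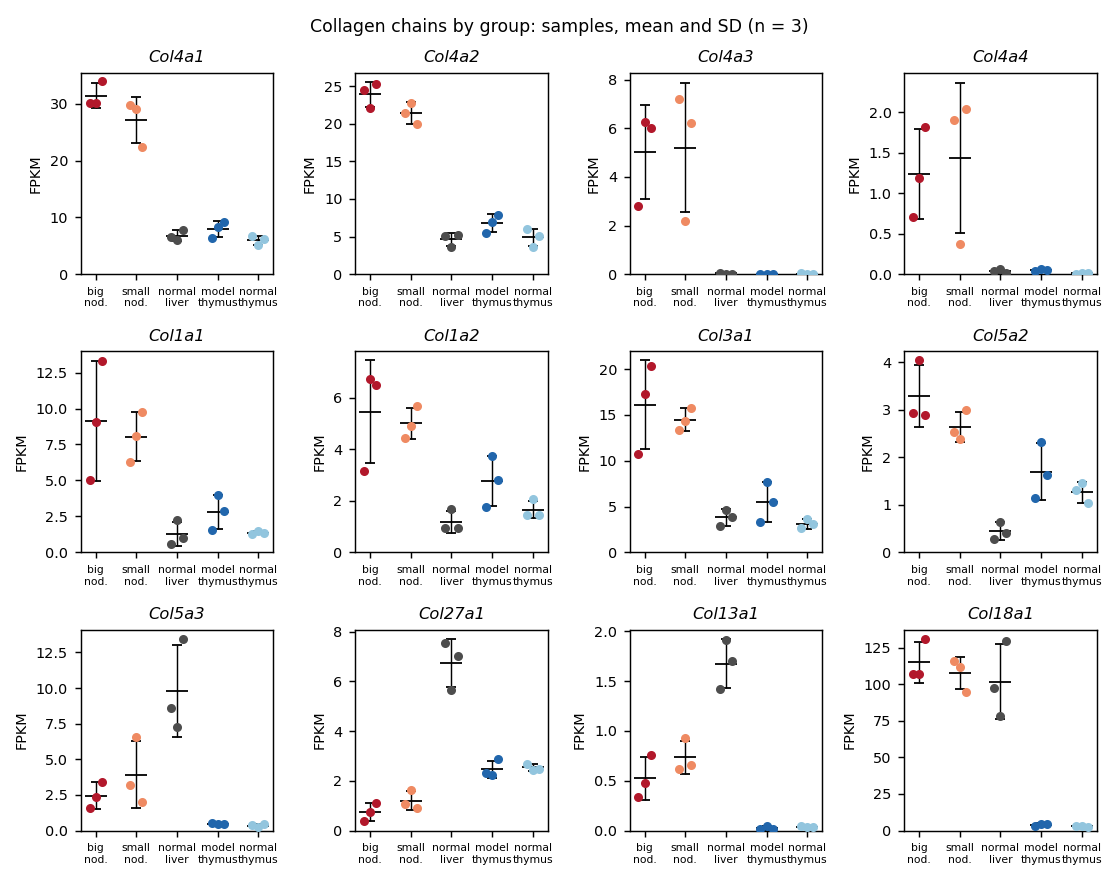
FPKM of 12 collagen genes (a panel for each gene, with its own scale from 0) in the 5 groups; points are samples, and the bar shows mean and SD over 3 samples. Col4a1, Col4a2, Col4a3, Col4a4, Col1a1, Col1a2, Col3a1 and Col5a2 lie higher in all 6 nodules than in all 3 livers, Col5a3, Col27a1 and Col13a1 lie lower, and Col18a1 overlaps.

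Among 8 fibrillar chains 7 were tested, of which 5 rose and 2 fell. Col1a1 (chr11:94936224-94953042), the major chain of type I fibrils, had 5.03, 9.06 and 13.3 FPKM in big nodules and 6.31, 8.08 and 9.76 FPKM in small nodules, against 0.604, 2.23 and 1.00 FPKM in livers 2, 3 and 5. It rose by 2.08 (SE 0.30, adjusted p = 0.0011). Every nodule was above every liver, with the big nodule of mouse 25 highest and the big nodule of mouse 8 lowest among nodules. Its trimer partner Col1a2 averaged 5.24 ± 1.25 FPKM in nodules and 1.18 ± 0.433 FPKM in livers (SD, n = 3 mice and 3 livers) and rose by 1.50 (SE 0.20, adjusted p = 0.000716). The ratio Col1a1 over Col1a2 was 1.63 ± 0.221 in nodules and 1.02 ± 0.342 in livers from the gene table, and 0.785 ± 0.103 and 0.504 ± 0.174 from the transcript table, so the level of Col1a1 relative to Col1a2 depends on the table used.

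Col3a1, the type III chain that accompanies type I in early scar, had 10.8, 17.3 and 20.3 FPKM in big nodules and 13.3, 14.3 and 15.8 FPKM in small nodules, against 2.89, 4.66 and 3.89 FPKM in livers. It was the highest fibrillar chain of nodules and rose by 1.75 (SE 0.19, adjusted p = 0.000284). Col5a2, a type V chain that helps to set fibril diameter, lies 24614 bases from Col3a1 on chromosome 1 in the opposite orientation; it averaged 2.96 ± 0.239 FPKM in nodules and 0.443 ± 0.186 FPKM in livers and rose by 1.45 (SE 0.13, adjusted p = 0.000104). Col5a1, the main type V chain, rose less, by 0.51 (SE 0.13, adjusted p = 0.0130), with 2.11 ± 0.201 FPKM in nodules and 1.17 ± 0.241 FPKM in livers. Quantile normalization ended the Col5a1 call (0.23, adjusted p = 0.161).

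Unlike these, Col5a3 and Col27a1 fell. Col5a3, the third type V chain, had 1.55, 2.33 and 3.44 FPKM in big nodules and 3.21, 6.58 and 1.99 FPKM in small nodules, against 8.63, 7.30 and 13.4 FPKM in livers. It fell by 1.42 (SE 0.24, adjusted p = 0.00229), with the small nodule of mouse 15 closest to the livers. Col27a1, a fibrillar chain described mainly in cartilage, had 0.402, 0.745 and 1.12 FPKM in big nodules and 1.06, 1.64 and 0.891 FPKM in small nodules, against 7.54, 5.65 and 7.04 FPKM in livers. It fell by 1.99 (SE 0.15, adjusted p = 4.49e-05), with every nodule below every liver. In the gene table Col3a1 and Col1a1 had the highest mean FPKM of the fibrillar chains in nodules, and Col5a3 and Col27a1 had the highest in livers. Col11a2, known from cartilage, stayed between 0.0704 and 0.430 FPKM in nodules and between 0.174 and 0.246 FPKM in livers and was not tested.

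**Figure D3:**
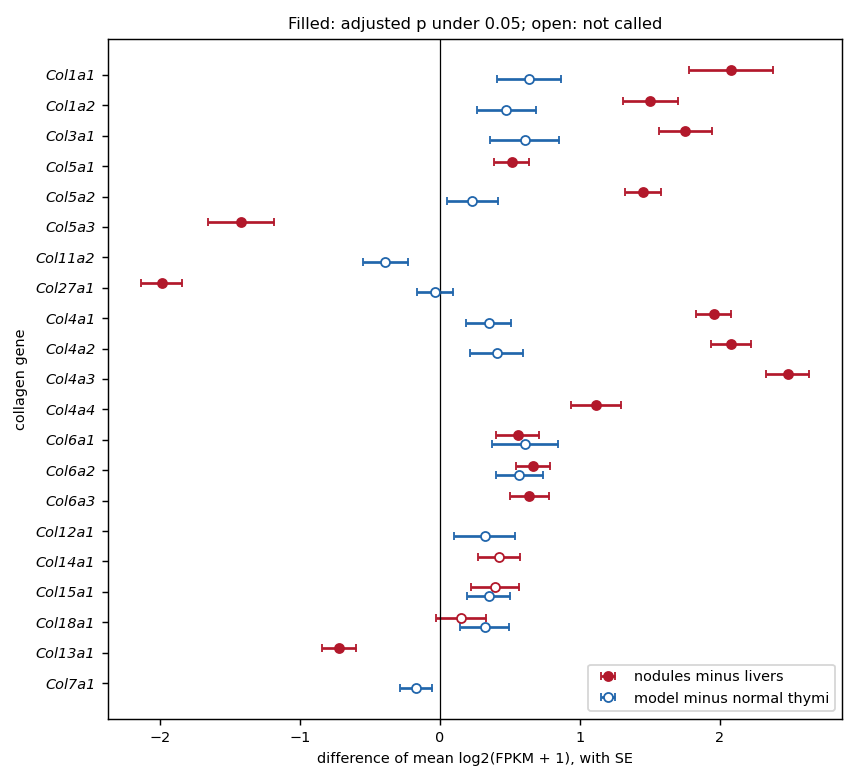
Difference of mean log2(FPKM + 1), with its SE, for each collagen gene tested in nodules minus livers (red, 3 mice and 3 livers) or in model minus normal thymi (blue, 3 and 3); filled points were called at adjusted p under 0.05. In red 12 filled points lie right of 0 and 3 left of it, while no blue point is filled.

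All 3 tested type VI chains rose. Col6a1 (chr10:76708792-76726168) had 1.84, 3.75 and 4.25 FPKM in big nodules and 3.03, 3.31 and 3.04 FPKM in small nodules, against 1.74, 2.13 and 1.59 FPKM in livers. Its rise of 0.56 (SE 0.15, adjusted p = 0.0224) had the highest adjusted p of the 12, and the big nodule of mouse 8 lay under liver 3. That call was lost without mouse 15 (adjusted p = 0.0683), mouse 25 (0.0692), liver 2 (0.0712) or liver 5 (0.0658), and under quantile normalization (0.136). Col6a2, which lies 85161 bases from Col6a1 on the same strand, averaged 1.41 ± 0.258 FPKM in nodules and 0.509 ± 0.0792 FPKM in livers and rose by 0.66 (SE 0.12, adjusted p = 0.00341). Col6a1 over Col6a2 was 2.26 ± 0.147 in nodules and 3.59 ± 0.354 in livers (SD, n = 3 mice and 3 livers) from the gene table, and 1.27 ± 0.0692 and 1.83 ± 0.167 from the transcript table, with every nodule below every liver in both. Col6a3 averaged 1.87 ± 0.450 FPKM in nodules and 0.819 ± 0.102 FPKM in livers and rose by 0.64 (SE 0.14, adjusted p = 0.00813), a call that quantile normalization ended (0.35, adjusted p = 0.0819). Col6a6, not tested, lay between 0.256 and 1.17 FPKM in nodules and between 0.0416 and 0.0981 FPKM in livers without overlap.

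FACIT and multiplexin chains gave no called difference. Col14a1, a FACIT on the surface of type I fibrils and the only FACIT chain tested, had 10.1, 12.2 and 11.8 FPKM in big nodules and 10.1, 12.8 and 13.8 FPKM in small nodules, against 8.31, 7.33 and 9.99 FPKM in livers. All nodules were above all livers, yet the difference of 0.42 (SE 0.15, adjusted p = 0.0538) missed the threshold. It passed without the big nodule of mouse 25 (0.46, adjusted p = 0.0488), without mouse 8 (0.52, adjusted p = 0.0411), without liver 5 (0.53, adjusted p = 0.0326), with every sample rescaled to the same FPKM sum (0.56, adjusted p = 0.0213) and at a filter of 5 FPKM (adjusted p = 0.0498). Col15a1, a multiplexin, averaged 2.09 ± 0.460 FPKM in nodules and 1.31 ± 0.408 FPKM in livers, with a difference of 0.39 (SE 0.17, adjusted p = 0.103).

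Col18a1 (chr10:77052178-77166548, minus strand), whose protein ends in the fragment known as endostatin, was the most abundant collagen transcript of both nodules and livers. It had 107, 107 and 131 FPKM in big nodules and 116, 112 and 94.98 FPKM in small nodules, against 97.4, 78.5 and 130 FPKM in livers. The groups overlapped in part, with liver 3 below all nodules and the big nodule of mouse 25 above all livers, and the difference of 0.15 (SE 0.18, adjusted p = 0.547) was not called. Mouse Col18a1 has an upstream start, known for the short form of many basement membranes, and a downstream start, known for longer forms made by hepatocytes. In the transcript table, whose isoform values are estimates by the authors' software, the upstream start (position 77166548) supplied 42.5, 40.9 and 38.5% of transcript FPKM from both starts in big nodules and 49.4, 48.1 and 32.9% in small nodules, against 52.0, 39.8 and 38.2% in livers. Shares of nodules and livers thus overlapped, and neither the transcript of the upstream start (0.11, adjusted p = 0.789) nor either of the 2 transcripts of the downstream start (0.17, adjusted p = 0.764, and 0.08, adjusted p = 0.951) was called.

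Col13a1, a transmembrane collagen of cell adhesions, fell. It had 0.341, 0.476 and 0.762 FPKM in big nodules and 0.621, 0.926 and 0.654 FPKM in small nodules, against 1.42, 1.91 and 1.70 FPKM in livers. The fall was by 0.72 (SE 0.12, adjusted p = 0.00229) with no overlap. The other members were low in both groups: Col7a1, Col9a3, Col12a1, Col16a1 and Col20a1 had means between 0.0286 and 0.773 FPKM in nodules and between 0.0514 and 0.470 FPKM in livers.

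Added over classes, collagen genes held 0.0692 ± 0.00403% of all FPKM in nodules and 0.0414 ± 0.00936% in livers (SD, n = 3 mice and 3 livers). Their summed FPKM was 208, 236 and 275 in big nodules and 231, 232 and 211 in small nodules, against 146, 126 and 188 in livers 2, 3 and 5. Without Col18a1 the sum was 121 ± 11.7 FPKM in nodules and 51.8 ± 6.09 FPKM in livers. Each sum is led by its most abundant chain and was not tested. Type IV chains supplied 25.6 ± 1.52% of collagen FPKM in nodules and 7.60 ± 0.529% in livers, and fibrillar chains 16.5 ± 2.75% in nodules and 16.2 ± 1.93% in livers. The fibrillar shares differed by less than the spread between samples. Col18a1 alone supplied 48.0 ± 2.55% of collagen FPKM in nodules and 65.8 ± 3.33% in livers.

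**Figure D4:**
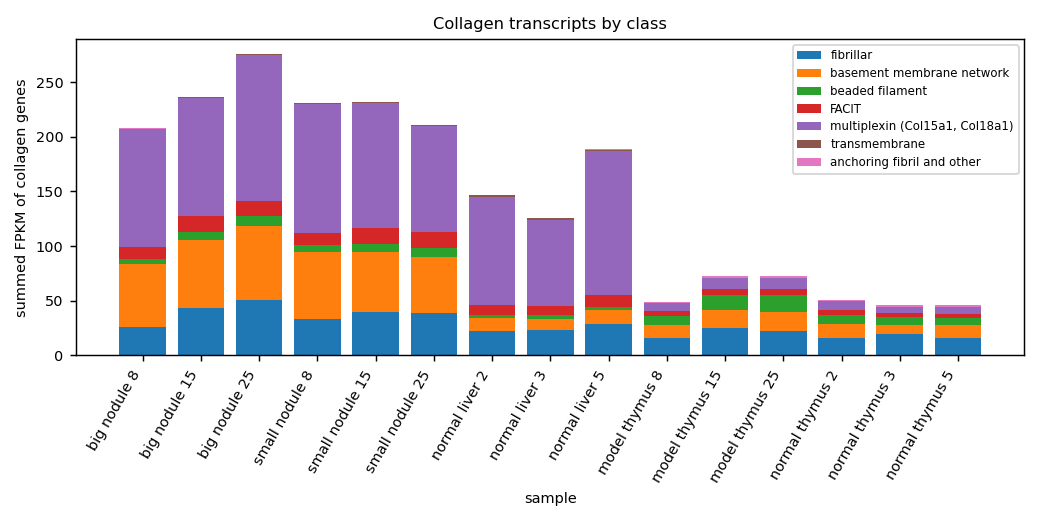
Summed FPKM of collagen genes in each of the 15 samples, stacked by class. Nodules reach between 208 and 275 FPKM, livers between 126 and 188 and thymi between 45.8 and 72.3; the type IV segment is between 51.2 and 68.0 FPKM in nodules and between 9.74 and 13.2 FPKM in livers.

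Big and small nodules were compared to see whether collagen transcripts differ with nodule size. Of 17 members tested none was called by limma, as none was among all 10415 genes (0% called); 417 genes and 0 members had an unadjusted p under 0.05. Differences of members ran from -0.45 for Col5a3 (SE 0.35) to 0.23 for Col5a2 (SE 0.16). Col4a1 alone among tested members had every big nodule above every small nodule, an order found in 3.16% of all genes. Taken apart against the same 3 livers, 9 of 16 tested members rose and 3 fell in big nodules, where 36% of all genes were called, 22.7% higher and 13.3% lower. In small nodules 11 of 17 rose and 3 fell, where 34% of all genes were called, 23.7% higher and 10.3% lower. Both counts share their livers and are not independent. Col4a3, Col5a2 and Col6a3 passed the filter through nodules alone in both comparisons, and Col6a2 did so in small nodules. Col13a1 passed through livers alone in both. All of these had to differ to be tested. The 2 calls of small nodules missing from the big-nodule list were Col6a2, not tested there, and Col6a1, tested with 0.56 (SE 0.23, adjusted p = 0.0986). Some calls of 1 nodule size depended on single libraries. Col5a1 was lost in big nodules without liver 2, liver 3, or the big nodule of mouse 15 or 25 (adjusted p 0.061 to 0.0761) and in small nodules without liver 2, liver 3 or any 1 small nodule (0.0661 to 0.115). Col5a3 was lost in small nodules without liver 2, liver 5, or the small nodule of mouse 8 or 25 (0.0748 to 0.102), Col6a3 in big nodules without any 1 liver (0.0759 to 0.0912), and Col6a1 in small nodules without liver 2 (0.0554). Quantile normalization also ended the calls on Col5a1 (0.118) and Col6a3 (0.166) in big nodules and on Col6a1 (0.124), Col5a1 (0.525) and Col6a3 (0.122) in small nodules.

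In thymus the comparison asks whether model mice differ from normal mice in collagen transcripts away from the tumour. Model mice bore nodules and had also received DEN and CCl4, while normal mice had received corn oil. Tumour and treatment therefore cannot be told apart here or in nodules against livers. None of 14 tested members was called by limma, nor was any of 11332 genes (0% called), while 1159 genes and 5 members had an unadjusted p under 0.05. The members' median difference was 0.35 and that of all genes 0.05, with 11 members higher and 3 lower. Col6a2 had the smallest p among members: it had 2.72, 3.94 and 4.37 FPKM in model thymi 8, 15 and 25, against 2.24, 2.31 and 1.82 FPKM in normal thymi 2, 3 and 5. The difference was 0.57 (SE 0.17, limma adjusted p = 0.481), with all model thymi above all normal thymi. Col1a1 had 1.58, 3.96 and 2.90 FPKM in model thymi, against 1.28, 1.50 and 1.31 FPKM in normal thymi, a difference of 0.64 (SE 0.23, adjusted p = 0.481). In both genes the thymus of mouse 8 was the lowest of the model thymi and closest to the normal ones.

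Other thymic differences were 0.61 for Col6a1 (SE 0.24), 0.61 for Col3a1 (SE 0.25), 0.47 for Col1a2 (SE 0.21), 0.41 for Col4a2 (SE 0.19) and 0.35 for Col4a1 (SE 0.16), with limma adjusted p from 0.481 to 0.501. Col11a2 lay the other way, with 4.71, 3.49 and 4.77 FPKM in model thymi, against 5.36, 7.10 and 5.49 FPKM in normal thymi, a difference of -0.39 (SE 0.16, adjusted p = 0.481). So did Col7a1, the chain of the anchoring fibrils under stratified epithelium, with 1.20, 1.34 and 1.21 FPKM in model thymi, against 1.56, 1.57 and 1.47 FPKM in normal thymi, a difference of -0.17 (SE 0.11, adjusted p = 0.561). Of the 14 tested members 2 had every model thymus above every normal thymus and 2 had every model thymus below, against 12.3% and 6.53% of all genes tested. Fibroblast markers summed to between 472 and 513 FPKM in model thymi and between 493 and 534 FPKM in normal thymi, led by Thy1, which thymocytes also express. Of these 10 markers 9 were tested and none was called. Endothelial markers summed to between 28.3 and 37.1 FPKM in model thymi and between 20.5 and 24.9 FPKM in normal thymi. The 3 mesothelial markers in the table summed to between 3.19 and 14.0 FPKM in model thymi and between 1.63 and 2.36 FPKM in normal thymi. Both were without overlap, while the sums of all other marker lists overlapped. Only 2 of 8 endothelial and 1 of 3 mesothelial genes passed the filter in thymi. None of the marker genes tested was called in thymus, where none of all 11332 genes was. The part of these cells in the collagen values was not tested.

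Whether the model difference was the same in both organs was tested by the interaction, (nodules minus livers) minus (model minus normal thymi), over 12683 genes of which 22.2% were called, 14.6% positive and 7.62% negative. Of 21 members tested 11 were called, 8 positive and 3 negative. The positive ones were Col4a3 (2.48), Col4a2 (1.67), Col4a1 (1.61), Col1a1 (1.44), Col5a2 (1.22), Col3a1 (1.15), Col4a4 (1.06) and Col1a2 (1.03). Negative ones were Col27a1 (-1.95), Col5a3 (-1.55) and Col13a1 (-0.71). Col4a3 and Col4a4 were under 1 FPKM in every liver and thymus and passed the filter through nodules alone. Col13a1 was under 1 FPKM in every nodule and thymus and passed through livers alone. Nodules and livers thus had to differ in these genes for them to be tested. Type IV chains accounted for 4 of the 8 and type VI chains for none: Col6a1 had -0.05 (SE 0.30), Col6a2 0.10 (SE 0.21) and Col6a3 0.37 (SE 0.19). The calls on Col1a1, Col1a2 and Col3a1 were narrow, with adjusted p of 0.0252, 0.0304 and 0.0272. Col1a1 lost its call without mouse 25's nodules, liver 2, liver 5 or model thymus 8 (adjusted p 0.054 to 0.0652). For Col3a1 this happened without the nodules of mouse 15 or 25, liver 2, model thymus 8 or normal thymus 3 (0.0524 to 0.0715), and for Col1a2 without any of these, liver 5 or model thymus 25 (0.0525 to 0.0751).

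The 2 normal organs differed in which collagens they carried. Of 16 members tested in normal thymi against normal livers 6 rose and 5 fell, where 84.7% of 11763 genes were called, 61.8% higher and 22.8% lower, and the median of all genes was 0.86. Quantile normalization changed the split to 3 higher and 8 lower. It gives all samples the same distribution of values and so acts on all genes, and the changed split is not read as a result about collagens. Col6a2, Col5a2, Col11a2 and Col7a1 were under 1 FPKM in every liver and passed the filter through thymi alone. Col5a3, Col14a1 and Col13a1 were under 1 FPKM in every normal thymus and passed through livers alone. Genes of both kinds had to differ to be tested. Col18a1 had 3.42, 2.85 and 2.58 FPKM in normal thymi, against 97.4, 78.5 and 130 FPKM in livers, and fell by 4.68 (SE 0.19, adjusted p = 6.56e-08). In thymi the upstream start supplied 78.3, 85.7 and 79.4% of Col18a1 in model thymi and 81.6, 84.9 and 77.1% in normal thymi, above all 9 nodules and livers. As a percent of its mean in normal livers, the upstream start averaged 7.39% in model thymi and 5.5% in normal thymi, and the downstream start 1.26% in model thymi and 0.955% in normal thymi. On the same scale the 6 hepatocyte markers averaged between 0.144 and 0.852% in model thymi and between 0.130 and 0.992% in normal thymi, with Alb the highest. The part of hepatocyte transcripts in the thymic Col18a1 values was not tested.

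**Figure D5:**
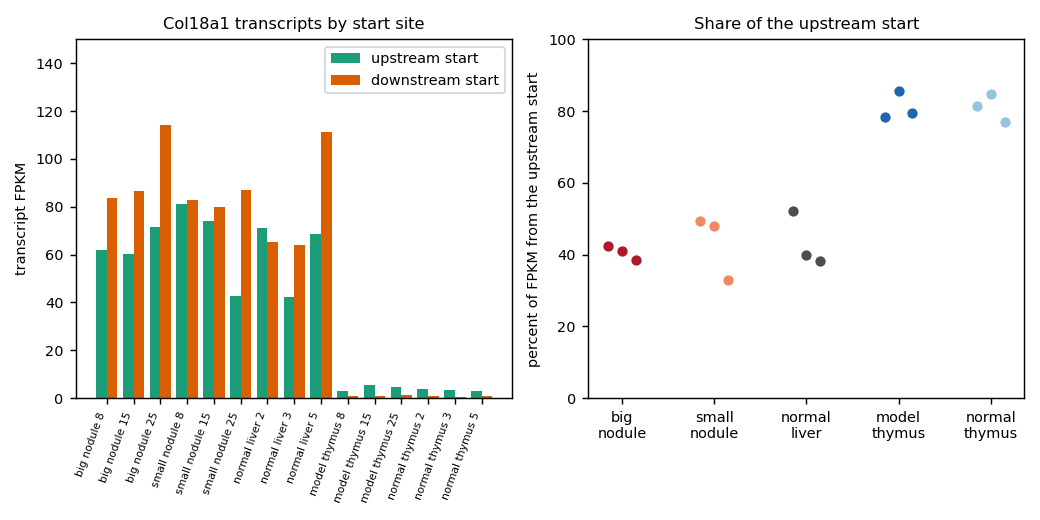
Left, FPKM of Col18a1 transcripts from the upstream and the downstream start in each of the 15 samples; right, percent of that FPKM from the upstream start, a point for each sample. Thymi lie between 77.1 and 85.7%, nodules between 32.9 and 49.4% and livers between 38.2 and 52.0%.

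In normal thymi against livers Col5a3 fell by 2.96 (SE 0.21), Col14a1 fell by 2.5 (SE 0.15), Col13a1 fell by 1.36 (SE 0.10) and Col27a1 fell by 1.12 (SE 0.14) on the log2 scale. Col11a2 rose by 2.53 (SE 0.13), with 5.36, 7.10 and 5.49 FPKM in normal thymi, against 0.174, 0.184 and 0.246 FPKM in livers. Col7a1 rose by 1.24 (SE 0.08), Col15a1 by 1.10 (SE 0.16), Col6a2 by 1.05 (SE 0.11), Col6a1 by 1.00 (SE 0.15) and Col5a2 by 0.65 (SE 0.13). Under quantile normalization Col15a1 (0.38, adjusted p = 0.0560), Col6a1 (0.26, adjusted p = 0.126) and Col5a2 (0.08, adjusted p = 0.563) were no longer called. Col4a1, Col4a2, Col1a1, Col1a2 and Col3a1 had differences from -0.22 to 0.30 that were not called, and each was called under some alternative. Quantile normalization gave -0.95 for Col3a1 (adjusted p = 0.00116), -0.89 for Col4a1 (0.000406) and -0.68 for Col4a2 (0.00759), whose sign turned. Rescaling to a common FPKM sum gave 0.67 for Col1a2 (0.00258) and 0.59 for Col4a2 (0.0316). Without liver 3 the difference was 0.40 for Col1a1 (0.0344) and 0.45 for Col1a2 (0.0232). With 0.1 added before the logarithm no call changed, but Col13a1 had -3.67, Col7a1 3.26, Col5a2 1.37, Col6a2 1.87, Col11a2 4.33 and Col5a3 -4.45. The groups differ in tissue alone by label, yet FPKM sums lay between 227269 and 257205 in normal thymi and between 364160 and 377984 in livers.

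Genes that work with collagen moved in nodules as well; these lists were chosen with earlier results known, and their counts stand beside the 40.5% called overall. Of the 61 genes tested in these lists 15 were under 1 FPKM in every liver, and P4ha2 was under 1 FPKM in every nodule, so those passed the filter through a single group and had to differ to be tested. Among genes named here this holds for Adamts14, Loxl2, Ctsk, Ddr1, Itga2, Lama5, Fbn1 and P4ha2. Of 13 tested genes for folding and modifying chains 6 rose and 1 fell. Crtap, part of the prolyl 3-hydroxylation complex, rose by 1.16, the cyclophilin Ppib by 0.78, and P4ha2, a prolyl 4-hydroxylase subunit, fell by 0.85. Of 7 genes for cleaving procollagen and cross-linking fibrils 6 rose, among them Adamts14, a procollagen N-proteinase (1.53), Loxl2, a lysyl oxidase (1.21), and Tgm2, a transglutaminase (1.01). Of 10 genes of degradation and its inhibitors 8 rose, such as the inhibitor Timp3 (1.15), the membrane protease Mmp14 (1.29) and the cathepsin Ctsk (1.09). The 1 that fell was Mmp19, by 0.59, named after its value was seen.

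All 5 tested collagen receptors rose, 2 of which (Ddr1, Itga2) were tested through nodules alone. Ddr1, a receptor kinase, had 4.78, 3.57 and 4.54 FPKM in big nodules and 4.23, 3.66 and 4.21 FPKM in small nodules, against 0.127, 0.182 and 0.293 FPKM in livers (a rise of 2.1, adjusted p = 1.68e-05). Itga2 (1.32) and Itgb1 (0.81), the subunits of a collagen-binding integrin, also rose. Basement membrane partners rose in 5 of 8, led by Nid1, nidogen, which links laminin to type IV collagen, with 33.7 to 67.5 FPKM in nodules and 1.83 to 2.02 FPKM in livers (4.12, adjusted p = 4.86e-06); Lama5 rose by 1.74 and Hspg2, perlecan, by 0.84. Fibril partners rose in 5 of 9, among them Sparc (1.83), Fn1 (1.35) and Fbn1 (0.65), and the 1 that fell was decorin, Dcn, by 0.53, named after its value was seen. Ligands, receptors and targets of TGF-beta, a known inducer of collagen genes, rose in 5 of 9, among them the receptor Tgfbr2 (2.48) and the ligand Tgfb1 (0.70). None of these lists had a called gene between big and small nodules or between model and normal thymi. No gene at all was called there, of 10415 and 11332 tested, so this says nothing particular about these lists.

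Cell type markers differed in direction between lists, and their part in the collagen differences was not tested. Their counts stand beside 27.4% of all genes called higher in nodules against livers and 13.1% called lower. Markers named singly were chosen after their values were seen. Stellate cell markers summed to between 44.8 and 64.3 FPKM in nodules and between 72.9 and 101 FPKM in livers, with 2 of 9 higher (Reln, Pdgfrb) and 4 lower (Ecm1, Colec10, Ngfr, Hand2). Fibroblast and myofibroblast markers summed to between 30.7 and 41.3 FPKM in nodules and between 13.5 and 27.7 FPKM in livers, with 4 of 7 tested higher, and Acta2, smooth muscle actin, rose by 1.61. Thy1 and Cd34 in this list were under 1 FPKM in every liver and were tested through nodules alone. Pdgfrb stands in both this list and the stellate cell list. Endothelial markers summed to between 81.9 and 109 FPKM in nodules and between 54.1 and 62.9 FPKM in livers, with 5 of 8 higher. Macrophage markers summed to between 142 and 227 FPKM in nodules and between 101 and 121 FPKM in livers, with 5 of 6 higher. Cholangiocyte markers summed to between 55.5 and 387 FPKM in nodules and between 32.7 and 42.6 FPKM in livers, which was mostly Spp1, with 2 of 4 tested higher (Spp1, Sox9). Of 6 hepatocyte markers 3 were higher (Alb, Apoa1, Serpina1a) and 1 lower (Cps1). Adipocyte markers summed to between 19.7 and 32.2 FPKM in nodules and between 4.44 and 6.16 FPKM in livers without overlap, with 2 of 2 tested higher (Fabp4, Cidec), while Adipoq was listed at 0 in all 6 nodules. Smooth muscle and pericyte markers summed to between 8.18 and 15.96 FPKM in nodules and between 10.4 and 13.2 FPKM in livers, with 0 of 2 called. Of thymic epithelial markers 3 of 3 tested were higher, Krt5 and Ly75 among them tested through nodules alone, and of thymocyte markers 0 of 2 were called.

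Among transcripts, 23 of the 46 from collagen genes were tested in nodules against livers, and 8 rose and 2 fell. Over all 16969 transcripts tested 18.3% were called, higher or lower. The transcripts that rose were of Col1a1, Col1a2, Col3a1, Col4a1, Col4a2, Col4a3, Col4a4 and Col5a2, and those of Col5a3 and Col27a1 fell. These are the same directions as their genes, but both tables come from the same libraries, so this is no separate support. The filter was that used for genes, and the genes Col4a3, Col4a4 and Col5a2 were under 1 FPKM in every liver. A transcript that passed through nodules alone had to differ to be tested. Transcripts of Col6a1, Col6a2, Col6a3 and Col5a1 were not called (adjusted p 0.0588 to 0.105), nor was the Col13a1 transcript tested (-0.40, adjusted p = 0.413). In thymi 0 of 17 were called, against 0.136% of 17643.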

How the data were processed

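Poly(A) RNA was made into stranded libraries and sequenced on an Illumina instrument, as the labels' protocols state. FPKM tables of genes and of transcripts were deposited by the authors, with the unit taken from the file headers. The submitters' processing notes name StringTie 1.3.3, HISAT2 2.1.0, FastQC 0.11.7, cutadapt and build mm10, and the strand setting is not given in the sources used here. No read counts were given, so depth is unknown and no counting interval was computed; FPKM summed to 331746 to 338793 in nodules, 364160 to 377984 in livers and 225669 to 257205 in thymi. Coordinates are those of the deposited table, and 24 of the 26 members have the same identifier and position in GENCODE M21.

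Groups came from sample titles. Tests were two-sided, in limma 3.58.1 (lmFit, eBayes with trend; R 4.3.3) on log2(FPKM + 1), with genes kept at 1 FPKM or more in at least 3 samples and Benjamini-Hochberg adjustment over all genes kept. The procedure was tested on simulated data. Nodules against livers compared 3 mice with 3 livers. The titles name the same mouse for a big and a small nodule, and their deviations correlated at 0.307, 0.252 and 0.325, against -0.249 to -0.0365 between mice. Values within and between mice come from the same deviations and are not independent. Each member is named with its class; partner genes are named as up to 3 per list with the smallest adjusted p among those called, except 1 gene that is not reported here. Cell type markers, Mmp19 and Dcn were named outside that rule, after their values were seen. Class sums, ratios and start-site shares are descriptions without a test. The members, lists and tests were chosen with earlier results of these data known. Alternatives were another pseudocount (0.1), no filter or a filter of 5 FPKM, rescaling to a common FPKM sum, quantile normalization, the mouse as block and leaving out each replicate.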

Additional observations from a re-analysis of the deposited data

Results flagged for a closer look

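In 11 collagen genes the difference between model and normal mice differed between the organs by the interaction test of limma, (nodules minus livers) minus (model minus normal thymi), at an adjusted p under 0.05. Among type IV chains of basement membranes it was 2.48 for Col4a3, 1.67 for Col4a2, 1.61 for Col4a1 and 1.06 for Col4a4. Among fibrillar chains it was 1.44 for Col1a1, 1.22 for Col5a2, 1.15 for Col3a1 and 1.03 for Col1a2. It was negative for Col27a1 (-1.95), Col5a3 (-1.55) and the transmembrane chain Col13a1 (-0.71).

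The differences behind these values were of unequal size in the organs. For Col1a1 it was 2.08 in nodules against livers and 0.64 in model against normal thymi, and for Col3a1 1.75 and 0.61. For Col4a1 it was 1.96 in nodules and 0.35 in thymi, for Col4a2 2.08 and 0.41, for Col1a2 1.50 and 0.47, for Col5a2 1.45 and 0.23, and for Col27a1 -1.99 and -0.03. Col4a3, Col4a4, Col5a3 and Col13a1 did not pass the filter in thymi, where without a filter their differences were 0.01, 0.06, 0.13 and -0.01. In the interaction Col4a3 and Col4a4 passed the filter through nodules alone and Col13a1 through livers alone, so these genes had to differ to be tested. Over all 12683 genes tested 22.2% had a called interaction. None of the thymic differences was called on its own.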

How the results depend on the processing

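Counts of called collagen genes were compared with 15 in nodules against livers, 12 in big nodules, 14 in small nodules, 11 in normal thymi against livers and 11 in the interaction. A filter of 5 FPKM leaves fewer members tested. In the first 4 of these it gave 9 of 10 tested members, 6 of 8, 6 of 8 and 5 of 7. Over all genes tested 2606 of 6088, 2242 of 5678, 2024 of 5689 and 6914 of 7932 were called there. No filter gave 18 of 26 members in normal thymi against livers, where 11427 of 13923 genes were called. Leaving out each replicate gave 13 to 16 in nodules against livers, 8 to 10 in big nodules, 8 to 12 in small nodules, 7 to 10 in normal thymi against livers and 7 to 11 in the interaction, and 0 in each run between big and small nodules and between model and normal thymi. Without a small nodule 13 members passed the filter and without a normal thymus 12, so fewer were tested there; the interaction count was 7 without the nodules of mouse 25 or without liver 2. Rescaling to a common FPKM sum put the summed collagen FPKM at 203 in small nodules, 84.7 in model thymi and 60.4 in normal thymi, against 225, 64.4 and 47.6 as deposited. Scaling moved the median difference of all genes in nodules against livers, 0.13 as deposited, to 0.24 when rescaled and to -0.04 under quantile normalization. Of the single genes under these alternatives, the sign turned into a called value only for Col4a2 in normal thymi against livers (-0.68 under quantile normalization, 0.06 as deposited); the cause was not tested. With the mouse as replicate block, 0 members were called between big and small nodules, and 11 in the interaction with a correlation of 0.0546 within mice. This pairing, of samples from model mice only, changed no call in these comparisons. Livers and thymi of normal mice were not paired in any test. FPKM gives no depth, so the counting error of chains under 1 FPKM, such as Col4a5, Col6a6 and Col13a1 in nodules, cannot be stated.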
